A study of Mus musculus with 18 samples.

Results

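The HoxB genes form 1 of the 4 Hox clusters of the mouse and lie side by side on chromosome 11. All 10 listed members, Hoxb1 to Hoxb9 and Hoxb13, were taken by gene symbol from the annotation of the Affymetrix arrays used for embryonic fibroblasts. They were measured by 11 of 22690 probe sets. Of these, 10 carried the symbol of 1 member, Hoxb4 had 2, and 1 was annotated to both Hoxb7 and Hoxb8. Hoxb8 had no probe set of its own, so 9 of the 10 genes could be read separately. The study compared mouse cells with 1 working copy of Tdg (Tdg+/-) and with none (Tdg-/-). The samples used here were mouse embryonic fibroblasts (MEFs) immortalised with SV40, whose large T antigen inactivates the p53 and retinoblastoma proteins, with 3 Tdg+/- and 3 Tdg-/- arrays. All Tdg+/- arrays came from clone 4 and all Tdg-/- arrays from clone 9, so genotype and clone cannot be told apart. The cells were grown in DMEM with serum, no age, sex or strain is given in the labels used here, and no label says whether the 3 samples of a clone were separate cultures; p-values therefore measure only the spread between these arrays, which may be technical.

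Hox genes encode homeodomain transcription factors that give cells their position along the head-to-tail axis. Genes at the Hoxb1 end of the cluster are switched on first and furthest forward in the embryo, and those at the Hoxb13 end last and furthest back, an arrangement called colinearity. Retinoic acid activates the cluster from the Hoxb1 end, and Polycomb complexes keep it silent where it is not used. Cultured fibroblasts keep part of the Hox pattern of the body site they came from. Tdg encodes thymine DNA glycosylase, which removes mismatched thymine and oxidised forms of methylcytosine from CpG sites, and it is known to act at promoters of developmental genes.

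The signal of the Tdg probe sets, each of which is also annotated to Tdg pseudogenes, was 3.46-fold to 6.30-fold lower in Tdg-/- MEFs (limma adjusted p from 0.000726 to 0.00543); with Tdg-/- replicate 3 left out the 4.79-fold lower probe set had an adjusted p of 0.0524. The linear signal summed over all 23 probe sets of 13 measured fibroblast marker genes was 62700 to 67800 on the Tdg+/- arrays and 54900 to 57800 on the Tdg-/- arrays. Genes with several probe sets weigh more in this sum. Of the 23 probe sets of these markers 12 fell and 1, of Pdgfrb, rose, while those of Col1a1, Fn1 and Vim did not pass; leaving out single arrays left between 3 (without Tdg-/- replicate 1 or 3) and 14 (without Tdg+/- replicate 1) that fell. In these bulk samples fewer cells of a type and less RNA per cell cannot be told apart, and the part of the marker changes in the HoxB values was not tested. In limma 0 probe sets passed among 6 of pluripotent, 9 of blood, 11 of epithelial and 6 of muscle markers; at an unadjusted p under 0.05, 1 of the blood and 1 of the muscle probe sets were lower and 0 of the others differed. Kdr fell among 6 endothelial probe sets, and Sox2 and 1 probe set of Stmn2 rose among 10 neural ones; Kdr and Stmn2 lost their calls with single arrays left out (adjusted p up to 0.231 and 0.252, without Tdg-/- replicates 2 and 3). With Tdg+/- replicate 1 left out, 1 epithelial probe set (Cdh1) rose, 2 neural ones fell and 4 rose, Kdr was again the 1 endothelial probe set that fell, and in limma 0 pluripotent, blood or muscle ones were called. Tdg+/- replicate 1 stood apart. Its correlation with its group mates was 0.953 and 0.962 over all probe sets, theirs with each other was 0.997, and those among the Tdg-/- arrays were 0.996 to 0.998. Most HoxB values moved with this array, and the calls and most list medians below are given with and without it.

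No HoxB probe set passed the test in the comparison of all 6 arrays, in either direction (limma, Benjamini-Hochberg over 22690 probe sets; adjusted p from 0.082 to 0.597). The share of all probe sets past the threshold of 0.05 was 1.07% lower and 1.96% higher in Tdg-/- MEFs. At an unadjusted p under 0.05, 4 of the 11 HoxB probe sets were lower and none higher, where 6.81% of all probe sets were lower. With a trended and robust variance in place of the main model, 0 passed as well. All 11 HoxB probe sets had a negative log2 fold change (Tdg-/- minus Tdg+/-), between -0.79 and -0.11, a sign shared by 52.7% of all probe sets. Their median was -0.45, against -0.02 over all probe sets. For 7 of the 11 every Tdg-/- array lay below every Tdg+/- array, which held for 16.7% of all probe sets; the reverse order, seen in 20.6% of all probe sets, occurred in none of them. These shares are not matched for signal level. Over probe sets at or above the median level, 2 of them HoxB, the median log2 fold change was 0.12. Low-signal marker lists also leaned negative: 6 of 6 pluripotent, 6 of 6 endothelial, 8 of 9 blood, 9 of 11 epithelial and 5 of 6 muscle probe sets. Their medians were -0.36 to -0.22, and -0.19 to -0.07 without Tdg+/- replicate 1. Of the neural probe sets, 5 of 10 were negative.

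**Figure D1:**
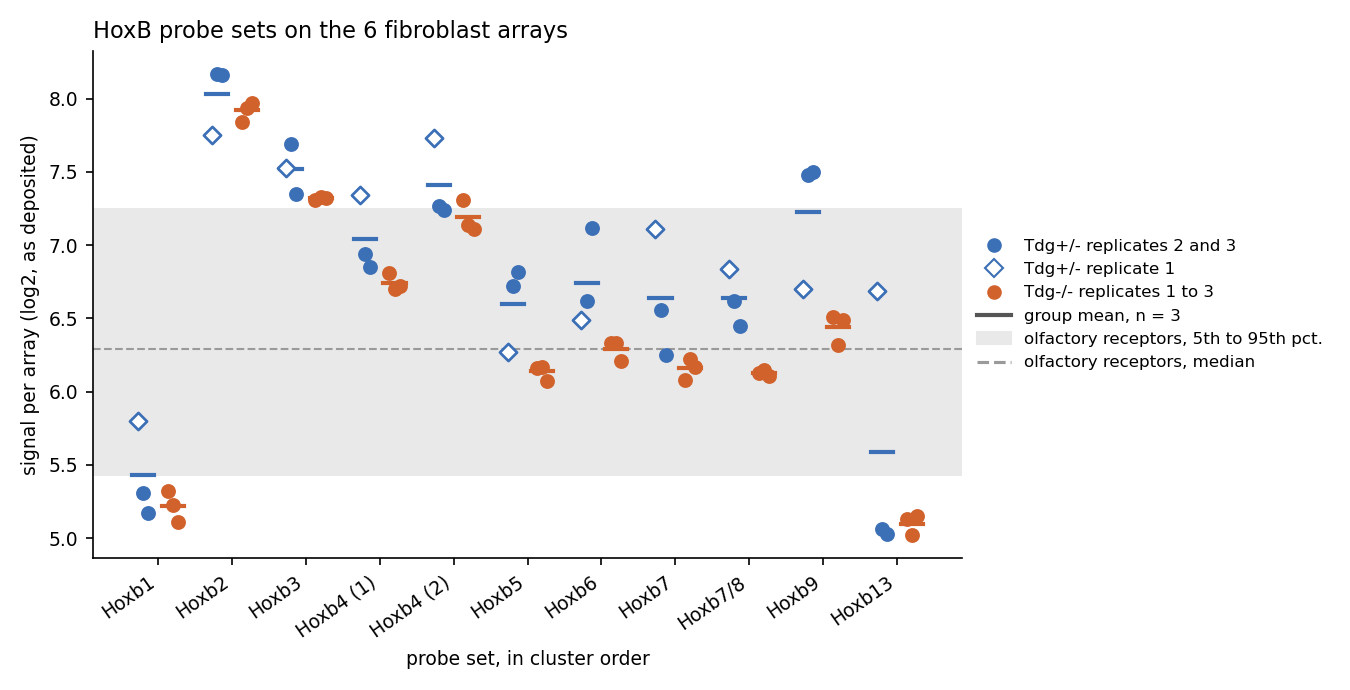
Signal (log2, as deposited) of the 11 HoxB probe sets on each MEF array, in cluster order from Hoxb1 to Hoxb13; points are arrays, short bars are group means of 3 arrays, the open diamond is Tdg+/- replicate 1, and the grey band spans the 5th to the 95th percentile (5.43 to 7.25) of 33 olfactory receptor probe sets. Hoxb4 (1) is probe set 1451761_at and Hoxb4 (2) is 1460379_at. The Tdg-/- points of Hoxb3, Hoxb4 (1), Hoxb5, Hoxb6, Hoxb7, the shared Hoxb7/8 probe set and Hoxb9 lie below all their Tdg+/- points. In most columns the open diamond lies away from its group mates.

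The deposited values have no detection calls, so the level of each probe set was set beside that of 33 olfactory receptor probe sets, genes with no known role in fibroblasts. This is only a rough guide, since probe sets differ in affinity. The mean levels of 3 HoxB probe sets, those of Hoxb2, Hoxb3 and one of Hoxb4 (1460379_at), lay above the 95th percentile of the olfactory receptors (7.25, log2). Another 6 lay between that value and the olfactory receptor median of 6.29. Of these 6, the Tdg-/- means of Hoxb5 (6.14), Hoxb7 (6.16) and the shared Hoxb7 and Hoxb8 probe set (6.13) lay under that median, so these lay above it on average only through the higher Tdg+/- arrays. The value of 6.29 is over all 6 arrays. Over the Tdg-/- arrays alone the olfactory receptor median was 6.16, close to these Tdg-/- means. Hoxb1 and Hoxb13 lay under 6.29 on average, so their expression was not established in these cells.

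At the Hoxb1 end of the cluster differences between the genotypes were small. Hoxb1, which specifies a segment of the hindbrain, read 5.80, 5.31 and 5.17 in Tdg+/- and 5.32, 5.23 and 5.11 in Tdg-/- MEFs (log2, replicates 1 to 3). The groups overlapped with and without Tdg+/- replicate 1, the highest array, with a log2 fold change of -0.21 ± 0.17 (SE, n = 3; limma adjusted p = 0.433). Hoxb2, which acts in the hindbrain and the facial nerve region, read 7.75, 8.17 and 8.16 in Tdg+/- and 7.84, 7.94 and 7.97 in Tdg-/- MEFs. Here Tdg+/- replicate 1 was the lowest of all 6 arrays and the other Tdg+/- arrays were the highest. The log2 fold change of Hoxb2 was -0.11 ± 0.13 (SE; limma adjusted p = 0.597), the smallest of the cluster.

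Hoxb3, a neighbour of Hoxb4 whose transcripts span it, read 7.53, 7.69 and 7.35 in Tdg+/- and 7.31, 7.33 and 7.32 in Tdg-/- MEFs. Its Tdg-/- arrays were almost level (SD 0.01) and lay just under the lowest Tdg+/- array, with a log2 fold change of -0.20 ± 0.11 (SE; limma adjusted p = 0.313). Hoxb4, known for its role in blood stem cell expansion, was read by a pair of probe sets that went together (r = 0.97 over 6 arrays). Probe set 1451761_at read 7.34, 6.94 and 6.85 in Tdg+/- and 6.81, 6.70 and 6.72 in Tdg-/- MEFs, and 1460379_at read 7.73, 7.27 and 7.24 against 7.31, 7.14 and 7.11. Both were highest on Tdg+/- replicate 1, and the groups were apart for the first and overlapped for the second. Their log2 fold changes were -0.30 ± 0.14 and -0.22 ± 0.15 (SE; limma adjusted p = 0.286 and 0.371).

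In the middle of the cluster, from Hoxb5 to Hoxb8, every Tdg-/- array lay below every Tdg+/- array for each probe set. The same held for Hoxb3, Hoxb4 (1451761_at) and Hoxb9, and for 16.7% of all probe sets. Hoxb5, which marks the neck and upper trunk level and acts in lung and neural crest, read 6.27, 6.72 and 6.82 in Tdg+/- and 6.16, 6.17 and 6.07 in Tdg-/- MEFs. Hoxb6, a gene of the trunk and the early limb bud, read 6.49, 6.62 and 7.12 against 6.33, 6.33 and 6.21. For both genes Tdg+/- replicate 1 was the Tdg+/- array nearest to the Tdg-/- arrays. The log2 fold change was -0.47 ± 0.15 for Hoxb5 and -0.45 ± 0.17 for Hoxb6 (SE; limma adjusted p = 0.173 and 0.216).

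Hoxb7, a trunk gene also studied for its activity in tumour cells, read 7.11, 6.56 and 6.25 in Tdg+/- and 6.08, 6.22 and 6.17 in Tdg-/- MEFs. In contrast to Hoxb5 and Hoxb6, it was highest on Tdg+/- replicate 1, and Tdg+/- replicate 3 was only just above the Tdg-/- arrays. Its log2 fold change was -0.48 ± 0.21 (SE; limma adjusted p = 0.263). The probe set shared by Hoxb7 and Hoxb8, the latter a gene of the trunk and of early myeloid cells, read 6.84, 6.62 and 6.45 against 6.13, 6.15 and 6.11. It had the lowest p-value of the cluster, with a log2 fold change of -0.51 ± 0.12 (SE), or 1.42-fold lower, and a limma adjusted p of 0.082. Its probes cannot tell the 2 genes apart.

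Hoxb9, which acts on the thoracic skeleton and the mammary gland, had the largest difference of the cluster. It read 6.70, 7.48 and 7.50 in Tdg+/- and 6.51, 6.32 and 6.49 in Tdg-/- MEFs. The groups did not overlap, but Tdg+/- replicate 1 lay nearer to the Tdg-/- arrays than to its own group. The mean signal was 7.23 ± 0.46 with 1 copy of Tdg and 6.44 ± 0.10 without Tdg (log2, SD, n = 3), a 1.72-fold lower signal with a log2 fold change of -0.79 ± 0.22 (SE; limma adjusted p = 0.134). Hoxb13, a gene of the tail and the prostate that stands apart from the rest of the cluster, read 6.69, 5.06 and 5.03 against 5.13, 5.02 and 5.15. Only Tdg+/- replicate 1 was high; the other 5 arrays lay within 0.14 on the log2 scale. The log2 fold change of Hoxb13 was -0.49 ± 0.43 (SE; limma adjusted p = 0.461), and 0.06 ± 0.08 without that array.

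Leaving out Tdg+/- replicate 1 (a fit of 2 against 3 arrays) changed the calls. Then 5 HoxB probe sets fell and none rose, where 6.56% of all probe sets fell and 11.3% rose. All Tdg-/- arrays lay below both remaining Tdg+/- arrays for 8 of the 11, against 24.9% of all probe sets. Hoxb9 fell 2.07-fold (limma adjusted p = 1.13e-05), Hoxb5 1.55-fold (adjusted p = 0.000254) and Hoxb6 1.49-fold (adjusted p = 0.00939). The shared Hoxb7 and Hoxb8 probe set fell 1.33-fold (limma adjusted p = 0.00518) and Hoxb2 1.18-fold (limma adjusted p = 0.0476). Hoxb7 alone had a log2 fold change of -0.25 ± 0.10 (SE; limma adjusted p = 0.108), and the probe sets of Hoxb1, Hoxb3, Hoxb4 and Hoxb13 had adjusted p-values from 0.191 to 0.862. The median over the 11 probe sets shrank from -0.45 to -0.24 while the call count grew, and the standard errors fell, for Hoxb9 from 0.22 to 0.08. Over all probe sets the count of calls went from 686 to 4055.

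**Figure D2:**
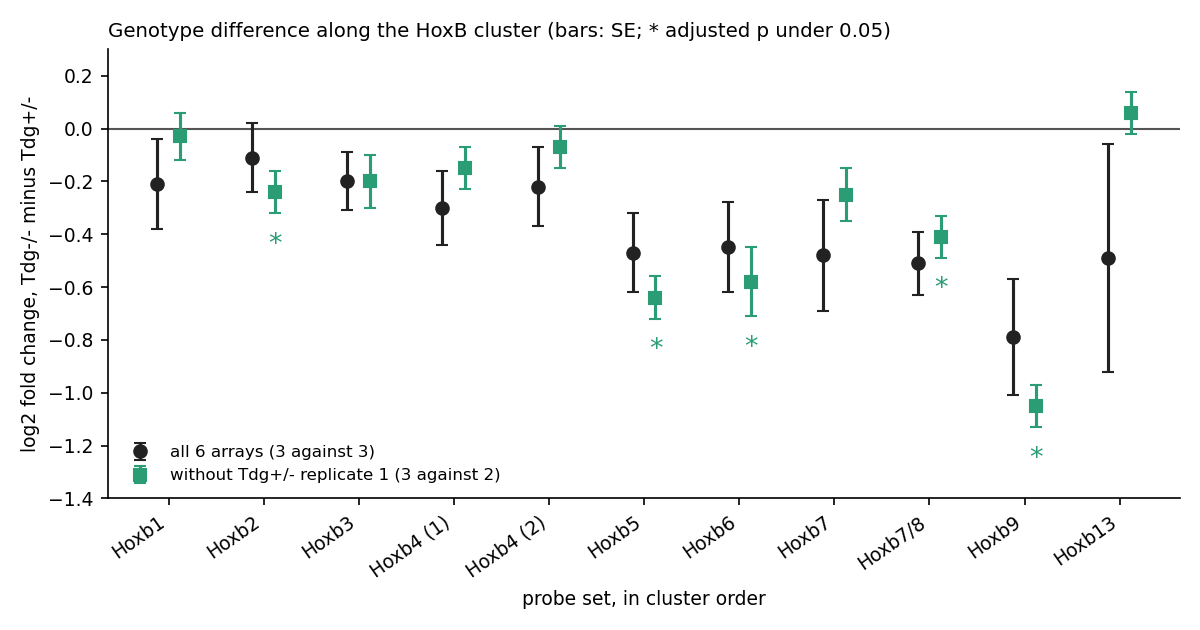
Log2 fold change (Tdg-/- minus Tdg+/-) of each HoxB probe set in cluster order, with its SE, from all 6 arrays (black circles) and without Tdg+/- replicate 1 (green squares); stars mark a limma adjusted p under 0.05. No black circle carries a star, Hoxb2, Hoxb5, Hoxb6, the shared Hoxb7/8 probe set and Hoxb9 carry one without that array, and Hoxb13 moves from -0.49 to 0.06.

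Tdg+/- replicate 1 moved the members in opposite directions. Against its 2 group mates it was higher for 6 HoxB probe sets, lower for 4 and between them for Hoxb3, whereas over all probe sets it was higher than both for 38.3% and lower than both for 51.7%. Its offset depended on signal level. In the lowest decile of probe sets by level its median difference from the mean of the other Tdg+/- arrays was 0.21, and in decile 8 it was -0.36 (log2). Hoxb13 was 1.64 higher on replicate 1 than on its group mates, more than 98.9% of probe sets of its decile. Hoxb9 was lower by this measure, at -0.79, as was Hoxb5 at -0.50; 11.5% and 9.83% of the probe sets of their deciles were lower still. What set this array apart was not tested.

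**Figure D3:**
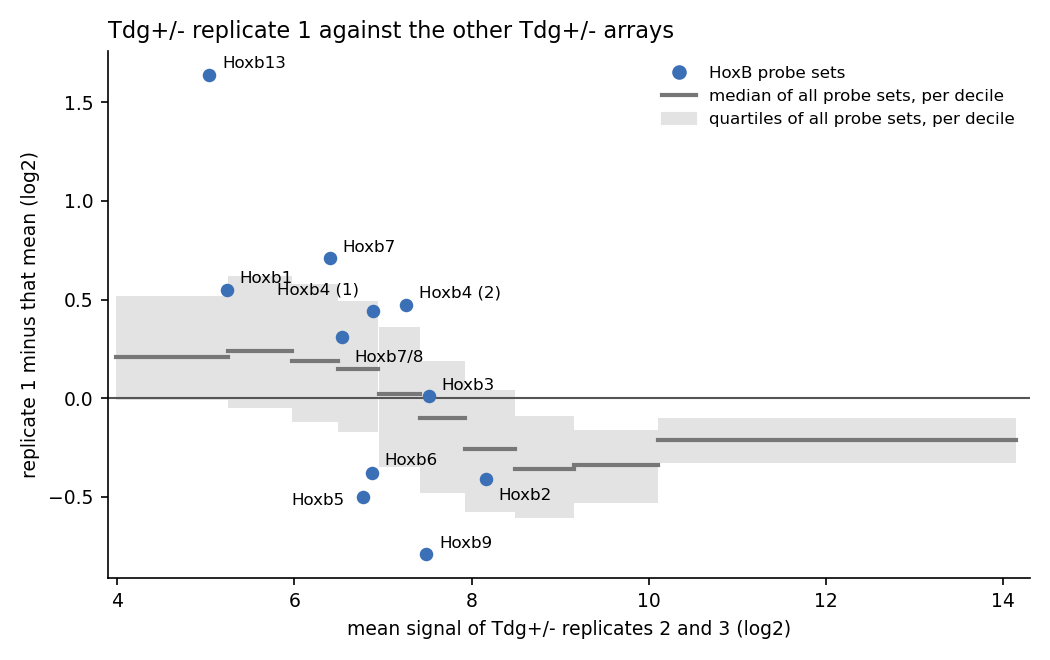
Difference between Tdg+/- replicate 1 and the mean of Tdg+/- replicates 2 and 3 (log2, vertical) against that mean (log2, horizontal) for the 11 HoxB probe sets (points), with the median and quartiles of all probe sets in each decile of level (grey). Hoxb13 (1.64) and Hoxb7 (0.71) lie farthest above 0 and Hoxb9 (-0.79), Hoxb5 (-0.50) and Hoxb2 (-0.41) farthest below.

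The members also fell into patterns across arrays that the gene names do not give. Over the 6 arrays Hoxb5 and Hoxb9 went together (Pearson r = 0.98), as did Hoxb5 and Hoxb6 (0.91). Hoxb1, both Hoxb4 probe sets, Hoxb7 and Hoxb13 went together as well, with r from 0.89 to 0.98 among them. Between these sets r was low, for instance 0.14 for Hoxb5 and Hoxb7 and -0.16 for Hoxb9 and Hoxb13. The shared Hoxb7 and Hoxb8 probe set lay between them, with r from 0.71 to 0.92 to the second set and from 0.45 to 0.54 to Hoxb5, Hoxb6 and Hoxb9. All pairs share the same 6 arrays. The probe sets of the second set and the shared one were the 6 that were highest on Tdg+/- replicate 1 among the Tdg+/- arrays. Hoxb5, Hoxb6 and Hoxb9 were below both group mates on Tdg+/- replicate 1. So was Hoxb2, with r = 0.78 to Hoxb5 and to Hoxb9 and 0.61 to Hoxb6. Differences between the genotype groups also enter these r values. The part of Tdg+/- replicate 1 in the sets was not tested. For Hoxb2, the member with the highest mean level, the 5 genes most alike over the 6 arrays were Epb41l3, Bzw1, Arpp19, Slc2a3 and Rsl24d1 (r from 0.989 to 0.993); each of them was, like Hoxb2, lowest on that array.

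Promoter sequences were held in the RefSeq table (build GRCm38.p6) for 3 members, Hoxb1, Hoxb4 and Hoxb8. All 3 are shown, because Tdg acts on CpG sites. Each is written 5′ to 3′ on the plus strand, from 250 bases before to 50 bases after an annotated start, with every CpG in capitals.
Hoxb1, chr11:96365508-96365807: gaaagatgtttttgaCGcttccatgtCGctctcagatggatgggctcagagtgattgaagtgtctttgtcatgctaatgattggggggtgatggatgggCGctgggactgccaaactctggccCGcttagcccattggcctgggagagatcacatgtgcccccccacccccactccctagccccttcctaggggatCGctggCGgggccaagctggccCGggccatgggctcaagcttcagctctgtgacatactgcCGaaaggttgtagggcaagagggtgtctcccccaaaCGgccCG
Hoxb4, chr11:96318017-96318316: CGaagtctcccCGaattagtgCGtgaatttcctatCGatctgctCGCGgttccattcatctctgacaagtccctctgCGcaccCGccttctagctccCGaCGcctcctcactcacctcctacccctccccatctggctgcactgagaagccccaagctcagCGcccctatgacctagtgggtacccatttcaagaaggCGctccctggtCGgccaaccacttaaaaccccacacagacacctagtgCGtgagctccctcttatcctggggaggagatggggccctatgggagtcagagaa
Hoxb8, chr11:96281655-96281954: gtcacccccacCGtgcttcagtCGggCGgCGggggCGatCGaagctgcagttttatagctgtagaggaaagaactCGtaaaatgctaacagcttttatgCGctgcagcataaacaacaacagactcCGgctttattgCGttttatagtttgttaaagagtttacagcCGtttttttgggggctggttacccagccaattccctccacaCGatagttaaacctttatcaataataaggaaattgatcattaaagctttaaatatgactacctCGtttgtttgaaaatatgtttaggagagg

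The Hoxb1 window held 10 CpG sites, the Hoxb4 window 14 and the Hoxb8 window 13, against a median of 7 over 32851 promoters of the same length. Fewer CpG sites than in these windows were held by 56.5% of promoters for Hoxb1, 63.7% for Hoxb4 and 62.1% for Hoxb8. The ratio of observed to expected CpG was 0.38 for Hoxb1, 0.59 for Hoxb4 and 0.97 for Hoxb8, and the GC content of the Hoxb8 window was the lowest of these, at 42.3%. For its base composition the Hoxb8 window was the richest of the 3 in CpG, while by count the Hoxb4 window was. A link between CpG content and signal was not tested. The motif TGATNNAT, a form of the joint site of Hox proteins and their Pbx partners, was searched on both strands. It was found once before Hoxb1, as TGATGGAT starting 162 bases before the start, and once before Hoxb8, as TGATCAAT on the opposite strand, and in 8.85% of all promoters. Mouse Hoxb1 is known to regulate itself through Hox and Pbx sites. Methylation and binding were not measured in these samples.

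Genes beside the cluster were read to see whether the region as a whole differed. Within 200 kb of the cluster 6 genes were measured, all on the Hoxb13 side, by 7 probe sets. Of these 0 passed in limma with all 6 arrays and 0 without Tdg+/- replicate 1, and the median log2 fold change was 0.02 with all 6 arrays. The largest difference was that of Gip, the gene of an intestinal hormone, at -0.29 ± 0.14 (SE; limma adjusted p = 0.282, unadjusted p = 0.0746), and no probe set of Igf2bp1, Snf8, Ube2z, Atp5g1 or Calcoco2 reached an unadjusted p under 0.05. A longer list of 13 measured genes around the cluster, read by 20 probe sets, had 0 past the threshold in limma, 1 higher and 0 lower at an unadjusted p under 0.05, and a median of -0.02. Without Tdg+/- replicate 1 Nfe2l1 rose 1.26-fold and Cdk5rap3 1.24-fold in it (limma adjusted p = 0.0223 and 0.0274), both named after their values were seen, and the median was again -0.02.

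The other Hox clusters give the setting for these values. Of 12 HoxA, 8 HoxC and 9 HoxD probe sets, 2, 1 and 2 fell and none rose, with median log2 fold changes of -0.49, -0.55 and -0.59 beside -0.45 for HoxB. These medians were, without Tdg+/- replicate 1, -0.25 for HoxA, -0.40 for HoxC, -0.60 for HoxD and -0.24 for HoxB, farther apart than with all 6 arrays. The probe sets that fell were those of Hoxa10, Hoxa11, Hoxc8, Hoxd11 and Hoxd13, limb and trunk genes of later paralog groups; Hoxd13 fell 3.70-fold (limma adjusted p = 0.00702). The count of 5 became 15 without Tdg+/- replicate 1 and 1 or 2 with any other array left out. Hoxa10, which fell 2.30-fold, kept its call in each of these 6 fits (limma adjusted p up to 0.0449), whereas Hoxd13 had up to 0.0613 and the others up to 0.21. The level of Hoxa10 averaged 5.92 with 1 copy of Tdg and 4.71 without Tdg (log2). Both values, like those of Hoxb1, were below the median of the olfactory receptors, so its expression was not established either and the size of its fold is uncertain. Averaged over all arrays, Hoxc8 (5.78) and Hoxd11 (6.05) also lay under that median, and Hoxa11 (7.15) and Hoxd13 (6.79) above it. Paralog groups are the genes with the same number in different clusters. With the cluster split at group 4, a division chosen after the values were seen, 5 HoxB probe sets of groups 1 to 4 had a median of -0.21 and 6 of groups 5 to 13 one of -0.49. The medians of the same groups were -0.09 and -0.94 in HoxA and -0.11 and -0.68 in HoxD. HoxC had 1 probe set in groups 1 to 4, at -0.42, and a median of -0.62 in the later groups. Without Tdg+/- replicate 1 the medians of the earlier and later groups were -0.15 and -0.49 in HoxB, -0.04 and -0.62 in HoxA and -0.07 and -0.85 in HoxD. In HoxC the order turned, with -0.53 in groups 1 to 4 and -0.30 in the later groups. These differences between divisions and clusters were not tested.

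**Figure D4:**
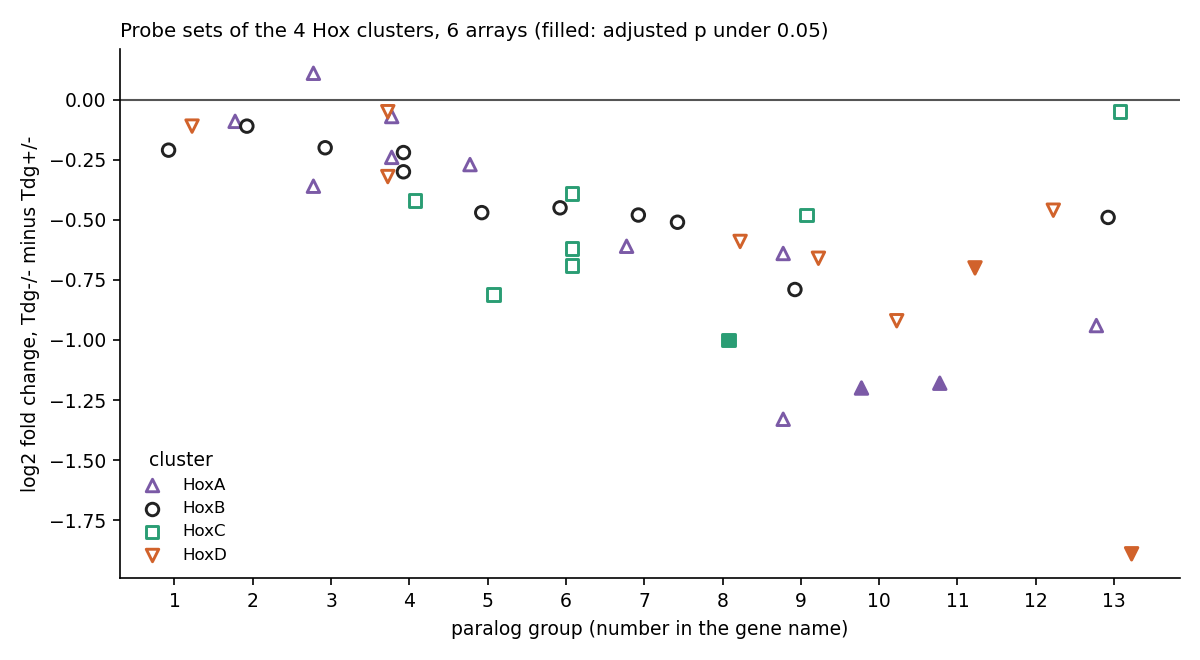
Log2 fold change (Tdg-/- minus Tdg+/-, 6 arrays) of the probe sets of the 4 Hox clusters against paralog group, the number in the gene name, with probe sets shared by neighbouring genes drawn halfway; filled symbols have a limma adjusted p under 0.05. HoxB (circles) lies between -0.79 (Hoxb9) and -0.11 (Hoxb2) with no filled symbol, and the filled symbols belong to groups 8 to 13 of the other clusters.

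Partners and regulators of the Hox genes were described from lists. Of 12 probe sets of Pbx, Meis and Pknox genes, which encode the DNA-binding partners of Hox proteins, 0 passed with all 6 arrays in limma, with 1 lower and 2 higher at an unadjusted p under 0.05 and a median log2 fold change of -0.02, or 0.02 without Tdg+/- replicate 1. Meis1 had a log2 fold change of 1.21 (adjusted p = 0.0962) and Meis2 one of -0.87 (adjusted p = 0.0794). Without Tdg+/- replicate 1 Meis1 rose 1.81-fold (limma adjusted p = 6.09e-05), Meis2 fell 2.11-fold (limma adjusted p = 2.53e-05) and 1 probe set of Pbx3 fell 1.22-fold (limma adjusted p = 0.0382). Of 20 probe sets of Cdx genes and of retinoid receptors, enzymes and binding proteins, 1 fell and 19 did not pass. It was Crabp2, which encodes a protein that carries retinoic acid to its receptors, 3.22-fold lower (limma adjusted p = 0.00072, and up to 0.0142 with single arrays left out). Without Tdg+/- replicate 1, 3 fell and 2 rose, and the median log2 fold change of this list went from -0.29 to -0.08. Besides Crabp2, the related Crabp1 fell 1.57-fold (limma adjusted p = 0.0011) and Cyp26a1, an enzyme that breaks down retinoic acid, fell 1.50-fold (limma adjusted p = 0.000442). The receptor gene Rxrb rose 1.28-fold (limma adjusted p = 0.00693). For Aldh1a3, an enzyme that makes retinoic acid, 1 probe set rose 1.21-fold (limma adjusted p = 0.0344). Its mean level was 5.15 (log2), under the olfactory receptor median. The other Aldh1a3 probe sets, at higher mean levels of 6.45 and 6.57, had log2 fold changes of 0.07 and -0.08 (limma adjusted p = 0.596 and 0.534). Of 40 probe sets of Polycomb genes, which repress Hox clusters, 0 passed in limma. At an unadjusted p under 0.05, 1 was lower and 9 were higher. Of all probe sets 6.81% were lower at this limit. The share that was higher was not computed, so the 9 have no base rate here. The Polycomb probe sets had a median log2 fold change of 0.15. Their median level was 7.70 (log2). Over all probe sets at or above the median level of 7.40, the median log2 fold change was 0.12, near that of this list. With Tdg+/- replicate 1 left out the Polycomb median was 0.05, and 1 probe set, of Rnf2, fell. Then 4, of Ezh2, Suz12, Cbx2 and Cbx8, rose by 1.20-fold to 1.35-fold (limma adjusted p from 0.00886 to 0.0462). Over all probe sets 6.56% fell and 11.3% rose in that fit. Other probe sets of Rnf2, Suz12, Cbx2 and Cbx8 were not called. Their log2 fold changes were -0.20 to 0.23 for Rnf2, -0.08 to 0.26 for Suz12, -0.11 for Cbx2 and -0.18 for Cbx8. Of 12 probe sets of trithorax genes and H3K27 demethylases, which keep Hox genes active, 0 passed in limma, with 1 lower and 2 higher at an unadjusted p under 0.05 and a median of 0.01. When Tdg+/- replicate 1 was left out the median was -0.07. Then 1 probe set of Ash2l fell 1.21-fold and 1 of Kmt2a rose 1.25-fold (limma adjusted p = 0.0303 and 0.0461). The other probe sets of Ash2l and Kmt2a went the same ways without a call, at log2 fold changes of -0.16 and 0.16 (limma adjusted p = 0.216 and 0.157). The genes called without that array in these lists are named after their values were seen. The part of these genes in the HoxB values was not tested.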

How the data were processed

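Total RNA (13 µg a sample, per the labels' protocols) of the MEFs was hybridised to Affymetrix arrays. The authors deposited log2 expression values (array medians 7.38 to 7.42). MAS5, RMA, affy and limma appear in the submitters' processing notes without role or order, and the method that made the values is not stated there. Arrays of ES and neuronal precursor cells were not used here. No sample column was left unused and no arrays were identical. Of 22690 probe sets 20393 had 1 gene symbol, updated through RefSeq GRCm38.p6 for 20364. All probe sets were fitted with limma 3.58.1 in R 4.3.3 (lmFit, eBayes, 2 groups), and p-values were adjusted over all of them by the Benjamini-Hochberg method at 0.05. The number of arrays limits the precision. The procedure was tested on simulated data that gave all arrays the spread of the Tdg-/- group. That test cannot show how the fit behaves with an array like Tdg+/- replicate 1. Members and lists were chosen with earlier results of these data known. Named genes were all members, Tdg, other Hox genes past the threshold, up to 4 changed genes of each list, measured genes within 200 kb, and the 5 genes most like the member with the highest level; others were named after their values were seen. Alternatives were quantile normalization, 2 level filters, 1 probe set a gene, a replicate block, trended and robust variances, a loess correction of 1 array, and leaving out each array.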

Additional observations from a re-analysis of the deposited data

How the results depend on the processing

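With all 6 arrays 0 HoxB probe sets fell and 0 rose. The count that fell was 1, the shared Hoxb7 and Hoxb8 probe set (limma adjusted p = 0.0397), after a loess correction of Tdg+/- replicate 1, and ranged from 0 to 5 when single arrays were left out, the 5 being without Tdg+/- replicate 1; it was 0 under every other alternative run, and 0 rose under all of them. The median log2 fold change of HoxB was -0.34 with quantile normalization, -0.38 with the loess correction and -0.16 with probe sets of below-median level left out, which kept only 2 HoxB probe sets; it ranged from -0.45 to -0.24 with single arrays left out. Hoxb13 alone of the members changed sign: its log2 fold change ranged from -0.77 to 0.06 with single arrays left out, positive without Tdg+/- replicate 1. Of 686 probe sets changed over the table, the count was 1086 with the loess correction and from 121 to 4055 with single arrays left out. The HoxA, HoxC and HoxD probe sets that fell were 5, then 1 with the below-median filter, 2 with those under the olfactory receptor median left out, 2 with a replicate block, and 1 to 15 with single arrays left out. Whether the replicate numbers pair the arrays was not settled. Deviations of same-numbered arrays correlated at 0.302, 0.045 and 0.272, and those of different-numbered arrays at -0.359 to 0.111. With the replicate block 289 probe sets changed, and no HoxB probe set was called. Causes were not tested. The number of arrays limits what can be seen, as does low signal: 8 of the 11 HoxB probe sets had a mean level at or under the 95th percentile of the olfactory receptors, and 5, those of Hoxb1, Hoxb5, Hoxb7, Hoxb7 with Hoxb8, and Hoxb13, had a Tdg-/- mean under their median.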
